A study of Bos taurus with 60 samples.

Results

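The miR-199 and miR-214 group was followed across the bovine gut as 5 mature microRNAs (miRNAs), namely bta-miR-199a-3p, bta-miR-199a-5p, bta-miR-199b, bta-miR-199c and bta-miR-214. They were taken by name from a table of 608 mature miRNAs, and all 5 were present and had counts in every library. The table holds raw read counts from 60 small RNA libraries of intestinal tissue of cattle (Bos taurus). By tissue label the libraries fall into 3 regions of the small intestine (duodenum, proximal and distal jejunum) and 3 of the large intestine (cecum, spiral and descending colon), each of the 6 with 5 libraries from non-shedders and 5 from super-shedders. Non-shedders had feces negative for Escherichia coli O157, and super-shedders excreted this bacterium at high numbers. No other treatment, breed or age is given. The titles begin with a letter, read here as the animal, with 1 library of each region per letter; letters A to E were non-shedders and letters F to J super-shedders. The protocol text speaks of rectal tissue for every library, and the tissue labels were followed.

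miRNAs are short RNAs that guide Argonaute proteins to messenger RNAs and lower their stability or translation, and 1 precursor hairpin can give a mature miRNA from each arm, called 5p and 3p. In human and mouse, miR-199a and miR-214 are made together from a long noncoding RNA that runs antisense within the DNM3 gene, and they are known from fibroblasts, smooth muscle and other mesenchymal cells rather than from epithelium. In human, the 3p arms of miR-199a and miR-199b have the same sequence, while their 5p arms differ. Among described targets are MTOR and MET for human miR-199a-3p, caveolin-1 (CAV1) for human miR-199a-5p and DYRK1A for mouse miR-199b-5p. In the bovine RefSeq gene table (assembly ARS-UCD2.0), MIR199A-1 and MIR214 both lie within DNM3 and the lncRNA LOC132342463, MIR199A-2 within DNM2, MIR199B within DNM1 and MIR199C within NUP88. The gene MIR3604-1 overlaps MIR199A-2, and MIR3604-2 overlaps MIR199B, so bta-miR-3604 was followed beside the group. MIR3120 overlaps MIR214.

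Total counts ran from 535373 to 19346766 per library, with a median of 1735050, and miR-143, a smooth muscle miRNA, took 51.8% of all counts. A marker rule set after earlier results of these data (miR-196b of the hindgut, miR-192 of epithelium and miR-122 of liver) placed 13 libraries outside what their region label would give. These were all 6 libraries of letter I, 3 of letter H, 2 of letter B and 1 each of letters C and G, so 10 of the 13 were from super-shedders. Several results that include them are also given without them.

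The group was of moderate to low abundance, and its members were not equal. Levels are in CPM, counts relative to library size, scaled by TMM, a normalization that keeps a few dominant miRNAs from setting the scale. Mature miRNAs have near-equal lengths, so no division by length was made, and preferences of library making for some ends were not corrected. Over the 60 libraries miR-199c ran from 1040 to 4381 CPM with a median of 1879. miR-199a-3p ran from 314.6 to 4385 CPM with a median of 1875. miR-199b had a median of 533 CPM (111 to 1350) and miR-199a-5p one of 352 CPM (188 to 865). miR-214 was the scarcest, with a median of 46.4 CPM (18.9 to 110). The order was therefore the 3p arm and miR-199c above miR-199b, then miR-199a-5p, then miR-214, and the ranges of miR-199b and miR-199a-5p overlapped widely. By summed counts miR-199c ranked 38, miR-199a-3p 41, miR-199b 64, miR-199a-5p 81 and miR-214 151 among all miRNAs. The coefficient of variation over libraries was 31.0% to 40.6% for the 5 members, against 63.4% for miR-143. The smallest count behind any of these values was 38, for miR-214 in the duodenum of letter D, with an exact Poisson 95% interval of 26.9 to 52.2 that covers counting error only. miR-3120, which shares its locus with miR-214, had a median of 1.82 CPM and 0 counts in some libraries.

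miR-199a-3p and miR-199c could not be treated as separate measurements, because the counts of one nearly repeat those of the other. In 57 of the 60 libraries the miR-199a-3p count was equal to the miR-199c count or above it by at most 40 reads, or 100% to 100.234% of it. In the same 57 libraries the miR-3604 count was 63.0% to 77.4% of the miR-199c count. The remaining 3 libraries had 1 or 2 counts of miR-3604, and there miR-199a-3p was the lower of the pair. In the duodenum of letter E the counts were 3268 for miR-199a-3p and 3274 for miR-199c, and in the proximal jejunum of letter C they were 2085 and 2226. In the descending colon of letter J they were 3878 and 39656, so that miR-199a-3p reached 9.78% of miR-199c. Of 193 miRNAs with a mean of at least 50 counts, other pairs within 1% of each other in at least 50 libraries were miR-2284x with miR-2284y and miR-339a with miR-339b. How reads that match several miRNAs were assigned is not given in the sources used here, and its part in these counts was not tested. Values of miR-199a-3p are therefore given beside those of miR-199c, and several tests of it are also given without the descending colon library of letter J.

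**Figure D1:**
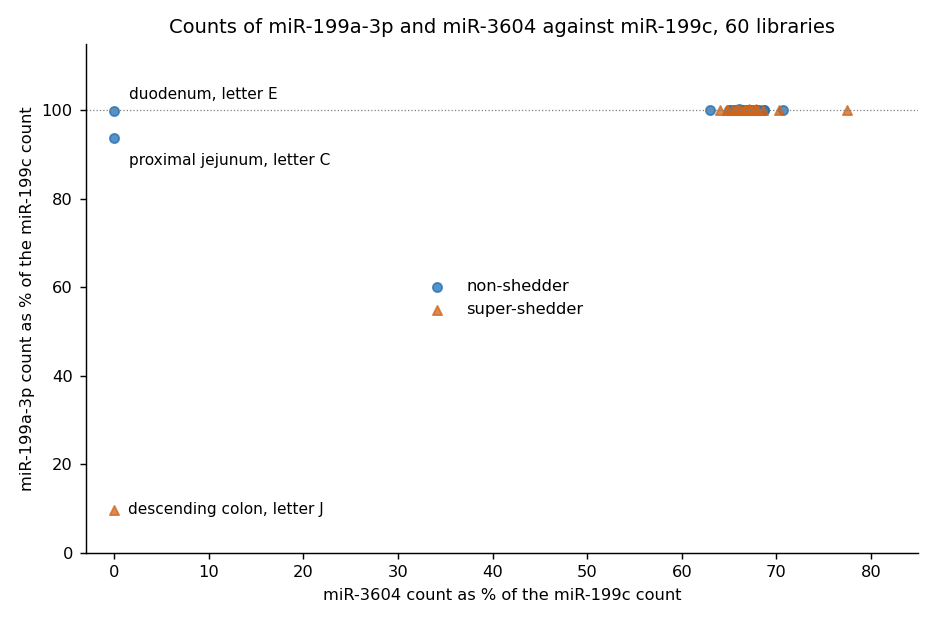
Count of miR-199a-3p (y axis) against count of miR-3604 (x axis), each as a percent of the miR-199c count, with 1 point per library (circles non-shedders, triangles super-shedders). In 57 libraries the points sit at 100% on the y axis and 63.0% to 77.4% on the x axis, and 3 named libraries sit near 0 on the x axis, of which the descending colon of letter J is at 9.78% on the y axis.

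The levels of all 5 members were lowest in the duodenum. The median of miR-199c over both statuses was 1406 CPM in the duodenum, 1670 in the proximal jejunum, 1796 in the distal jejunum, 2126 in the cecum, 2052 in the spiral colon and 2522 in the descending colon. In the duodenum its 10 libraries lay between 1040 and 1877 CPM, and in the descending colon between 1840 and 4381, so these end regions touched only at their edges. The medians of miR-199a-3p followed the same course, from 1407 CPM in the duodenum to 2249 in the descending colon. miR-199a-5p had medians of 276 CPM in the duodenum, 345 in the proximal jejunum, 320 in the distal jejunum, 394 in the cecum, 382 in the spiral colon and 461 in the descending colon. miR-199b went from 437 CPM in the duodenum to 646 in the descending colon, with a peak of 654 in the spiral colon. For miR-214 the medians were 30.3 CPM in the duodenum, 45.3 in the proximal jejunum, 47.1 in the distal jejunum, 53.1 in the cecum, 46.5 in the spiral colon and 50.1 in the descending colon. For miR-199a-5p, miR-199b and miR-214 the range of the duodenum overlapped that of every other region.

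**Figure D2:**
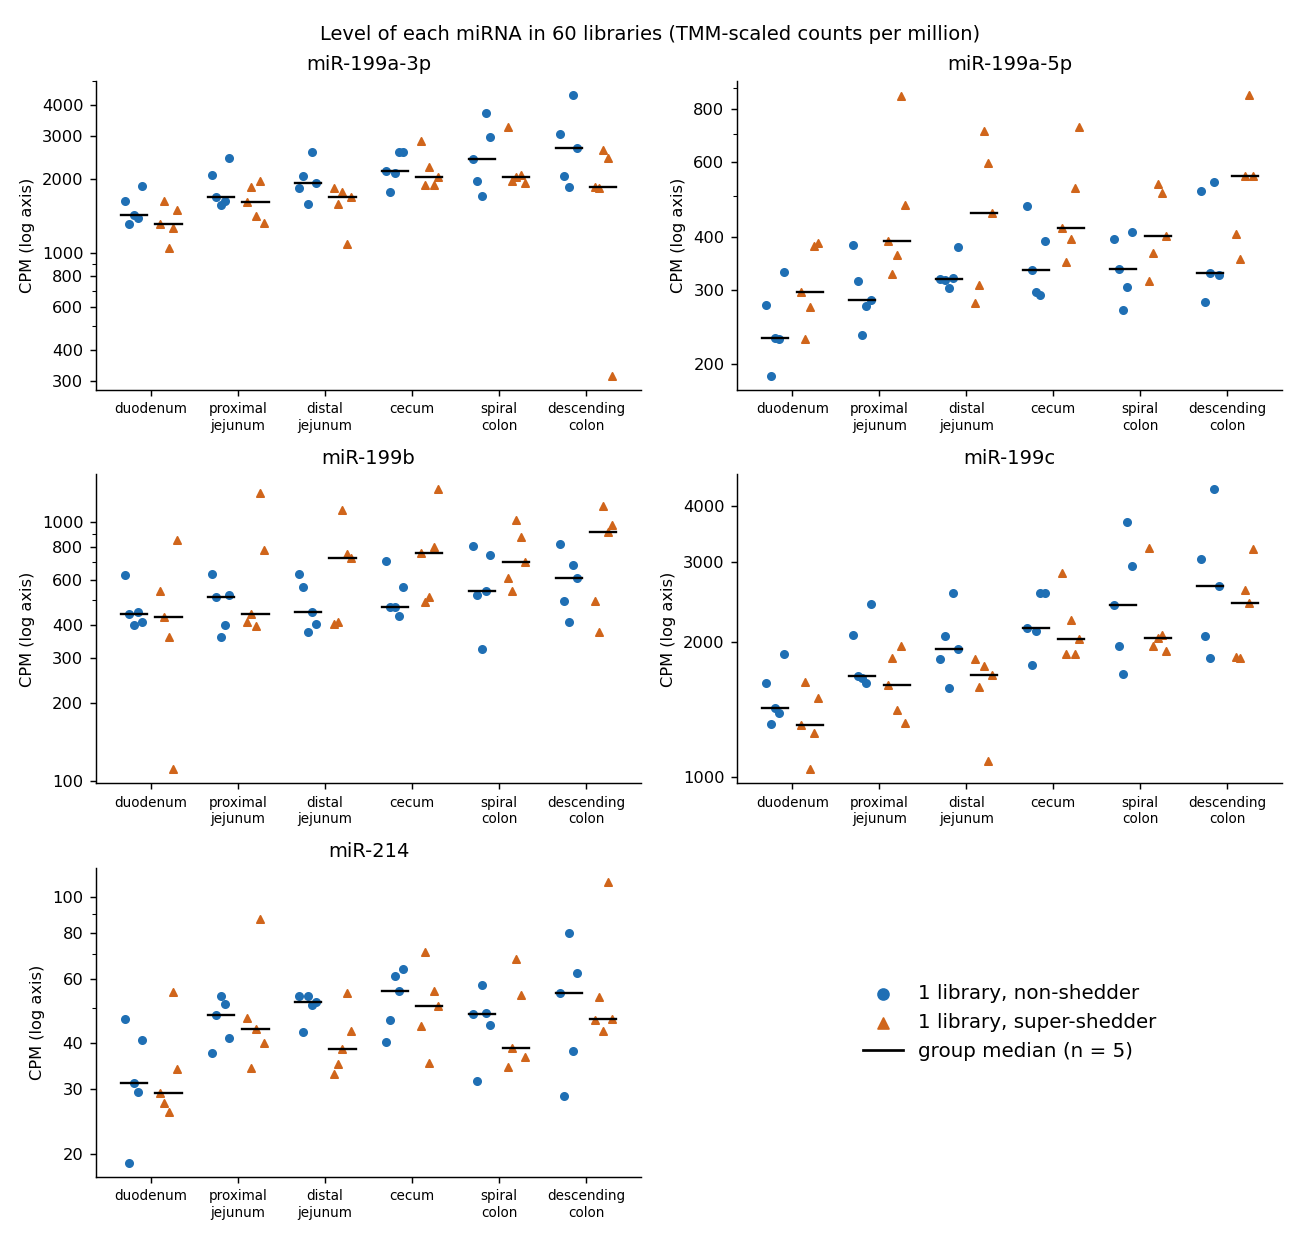
Level of each miRNA (TMM-scaled CPM, log axis) in each of the 60 libraries, by region and shedding status; circles are non-shedders, triangles super-shedders and black lines the median of 5 libraries. The duodenum has the lowest median over both statuses for each miRNA, and single libraries stand apart, such as miR-199a-3p at 314.6 CPM in the descending colon and miR-199b at 111 CPM in the duodenum.

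The large intestine (cecum and both colon regions) was compared with the small intestine (duodenum and both jejunum regions) in a model of all 60 libraries fitted with edgeR. miR-199c ran from 1040 to 2562 CPM in the 30 small-intestine libraries, with a median of 1623, and from 1697 to 4381 with a median of 2126 in the 30 large-intestine libraries. It rose by 0.50 ± 0.09 on the log2 scale (SE, adjusted p = 2.70e-05). miR-199a-3p had a median of 1620 CPM in the small and 2093 in the large intestine and rose by 0.44 ± 0.11 (adjusted p = 0.00282). Without the descending colon library of letter J the rise of miR-199a-3p by edgeR was 0.495 (adjusted p = 1.19e-05) and that of miR-199c was 0.492 (adjusted p = 1.19e-05). The groups of libraries overlapped for both, and since these counts repeat each other they make 1 observation. Of all 288 miRNAs tested, 27.1% were called in either direction and 11.8% were called higher in the large intestine, so 2 of 5 members is read against those shares.

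The other 3 members lay in the same direction without passing the threshold in that model. miR-199a-5p had medians of 318 CPM in the small and 396 CPM in the large intestine, with a log2 difference of 0.23 ± 0.10 (adjusted p = 0.0808). miR-199b went from 447 to 609 CPM, with a difference of 0.28 ± 0.14 (adjusted p = 0.117). For miR-214 the medians were 42.1 and 48.3 CPM, with a difference of 0.24 ± 0.11 (adjusted p = 0.0937). All 5 members had an unadjusted p under 0.05, as had 120 of all 288 miRNAs. The median log2 difference was 0.28 over the 5 members and -0.01 over all 288 miRNAs.

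The direction held in nearly every animal. The mean of a letter's large-intestine libraries minus that of its small-intestine libraries, in log2 CPM, was above 0 in 10 of 10 letters for miR-199a-5p, miR-199c and miR-214, and in 9 of 10 for miR-199a-3p and miR-199b. For miR-199c the difference ran from 0.17 in letter G to 0.95 in letter D. For miR-199a-5p it ran from 0.08 in letter I to 0.50 in letter A, and for miR-214 from 0.04 in letter B to 0.72 in letter G. The exception for miR-199a-3p was letter J at -0.48, where miR-199c stood at 0.64, and the exception for miR-199b was letter B at -0.02. With the letter as a block, 4 members were called, adding miR-199a-5p (0.24, adjusted p = 0.0110) and miR-214 (0.25, adjusted p = 0.0257), while miR-199b had an adjusted p of 0.0782, and 31.2% of all miRNAs were called in that fit. Without the 13 libraries 4 were called again, where 51.5% of all miRNAs were called, here with miR-199b (0.32, adjusted p = 0.0273) and miR-199a-5p (0.29, adjusted p = 0.00810) and without miR-214 (0.20, adjusted p = 0.106). Scaling to total counts, of which miR-143 is the largest share, left 0 members called by edgeR, while 29.2% of all miRNAs were called. It moved the median of all 288 miRNAs to -0.22. Relative to that median miR-199c stood at 0.51 and miR-199a-3p at 0.45, as against 0.50 and 0.45 with TMM.

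**Figure D3:**
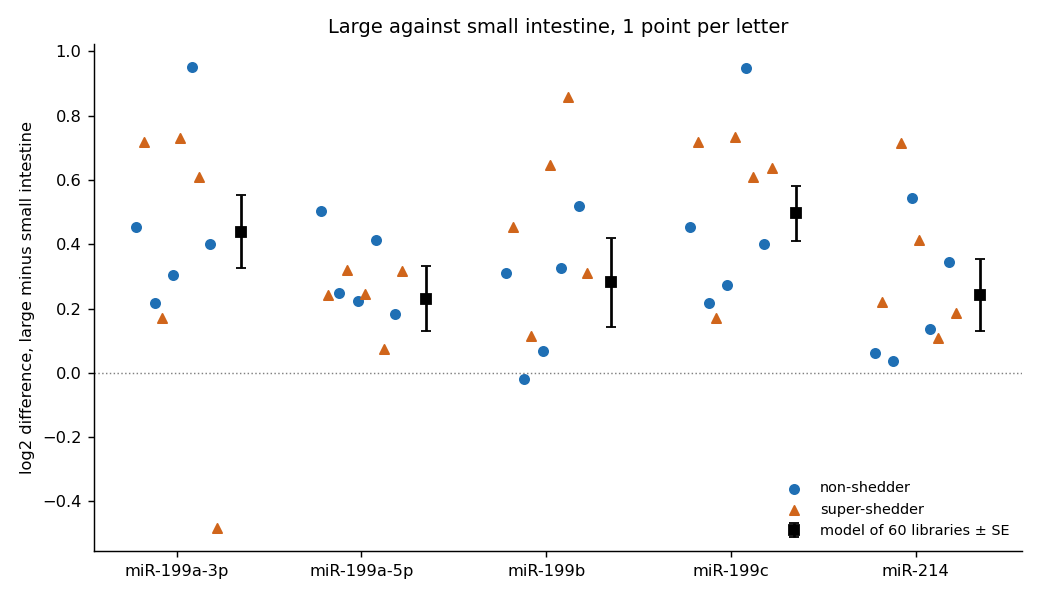
Large minus small intestine in log2 CPM for each letter (circles non-shedders, triangles super-shedders), and beside them the log2 fold change of the 60-library model with its SE (squares). Nearly all points lie above 0, with letter B at -0.02 for miR-199b, and letter J lies at -0.48 for miR-199a-3p and at 0.64 for miR-199c.

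Lists of marker miRNAs were read in the same contrast, with single miRNAs carrying most of their summed levels. Of 9 stroma miRNAs measured, edgeR called 1 higher and 0 lower in the large intestine, near the 11.8% of all miRNAs, 5 of 9 were positive and their median log2 difference was 0.12. The summed stroma level had a median of 36281 CPM in the small (22183 to 601748) and 99172 CPM in the large intestine (27839 to 374745), and the called member, miR-10b, made up 69.1% of the list. Without miR-10b the medians were 18430 and 25007 CPM. Of 5 smooth muscle miRNAs, 1 was higher and 0 lower, and their summed level, 99.4% of it miR-143, had medians of 415125 and 598977 CPM. Among 9 epithelial miRNAs 1 was higher and 1 lower, their median log2 difference was 0.05, and medians of the sum, 74.0% of it miR-192, were 167769 and 105026 CPM. Of 5 leukocyte miRNAs 0 were higher and 2 lower, and 44 of all 288 miRNAs were called lower. The endothelial, erythroid, neural and liver or pancreas lists had 0 called of 2, 3, 2 and 1 tested. In bulk tissue, fewer cells of a type and less RNA per cell cannot be told apart, and the part of tissue composition in the difference between gut parts was not tested.

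Single regions were separated less. The test of any difference between the 6 regions called miR-199c (adjusted p = 3.22e-04) and miR-199a-3p (adjusted p = 0.0377), against 21.5% of all miRNAs. miR-199a-5p (adjusted p = 0.0564), miR-214 (adjusted p = 0.0784) and miR-199b (adjusted p = 0.407) were not called. The call of miR-199a-3p was lost on leaving out any of letters A to I (adjusted p from 0.0507 to 0.177), whereas that of miR-199c held. All those fits keep the descending colon library of letter J. Without letter J the adjusted p by edgeR was 0.00208 for both. Without only that library it was 1.79e-04 for both. With the letter as a block, 4 members and 31.6% of all miRNAs were called, with adjusted p = 0.00227 for miR-199a-5p and 0.0102 for miR-214, and miR-199b was not called (adjusted p = 0.322).

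Between neighbouring regions 0 of 5 members were called by edgeR at each of the 5 steps. The share of all miRNAs called was 6.6% for the proximal jejunum against the duodenum, 0% for the distal against the proximal jejunum, 8.68% for the cecum against the distal jejunum, 0.347% for the spiral colon against the cecum and 0% for the descending against the spiral colon. The step from duodenum to proximal jejunum was the one where members came nearest, with 3 at an unadjusted p under 0.05, as had 61 of all 288 miRNAs. DESeq2 called 0 members at this step and 8.68% of all miRNAs. By edgeR miR-214 differed there by 0.53 ± 0.19 (adjusted p = 0.0782) and miR-199a-5p by 0.45 ± 0.18 (adjusted p = 0.108). With the letter as a block both were called, beside 5.90% of all miRNAs, miR-214 at 0.55 (adjusted p = 0.0205) and miR-199a-5p at 0.43 (adjusted p = 0.0223). At the other 4 steps 0 members had an unadjusted p under 0.05 in edgeR and 0 were called by DESeq2.

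For the question of the study, whether miRNA levels differ with shedding of E. coli O157, 0 of the 5 members were called in any region. The share of all miRNAs called was similarly small, at 0.418% in the duodenum, 0% in the proximal jejunum, 0.412% in the distal jejunum, 0% in the cecum, 0.383% in the spiral colon and 0% in the descending colon. DESeq2 also called 0 members in every region. Of all miRNAs it called 1 of 239 in the duodenum, 3 of 237 in the proximal and 3 of 243 in the distal jejunum. In the large intestine it called 1 of 260 in the cecum, 2 of 261 in the spiral colon and 0 of 269 in the descending colon. When counts were summed per letter across its 6 regions, 0 members and 0.277% of all miRNAs were called. Raw counts were summed, so regions do not weigh equally and deep libraries weigh most. The descending colon libraries of letters A and J had 1.93e+07 and 1.39e+07 counts, so region and letter are partly mixed in these sums. Of the members 1 had an unadjusted p under 0.05, as had 34 of all 361 miRNAs tested. An interaction test, which asks if the shedding difference changes with the region, called 0 members (lowest adjusted p = 0.992) and 0.347% of all miRNAs.

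miR-199a-5p was the member with the lowest p. In the proximal jejunum it stood at 383, 315, 235, 276 and 284 CPM in non-shedders A to E and at 391, 328, 362, 861 and 476 CPM in super-shedders F to J. Letters F, I and J lay above every non-shedder, with letter I far above the rest, and letters G and H lay below letter A. The log2 difference was 0.83 ± 0.29 (adjusted p = 0.352). In the same comparison 0 of the marker miRNAs were called. Positive log2 differences were found for 7 of 9 stroma miRNAs (median 1.25), 5 of 5 smooth muscle miRNAs (median 1.05) and 0 of 9 epithelial miRNAs (median -0.87). They were also found for 0 of 5 leukocyte miRNAs (median -0.41) and for 2 of 2 in each of the endothelial, erythroid and neural lists. Of all 237 miRNAs tested 135 were positive (median 0.06). The summed epithelial level had a median of 178571 CPM in non-shedders (115258 to 214632) and of 152044 CPM in super-shedders (2763 to 204295). The part of these lists in the difference was not tested. In the descending colon its values were 514, 280, 328, 539 and 326 CPM in letters A to E and 407, 356, 556, 865 and 558 CPM in letters F to J, and the groups overlapped (0.51 ± 0.28, adjusted p = 0.979). The difference was positive in 6 of 6 regions, from 0.26 in the duodenum to 0.83, and the regions share their animals, so they are not independent repeats. In the sum over regions it was 0.47 ± 0.20 (adjusted p = 0.459 by edgeR).

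By animal, the mean level of miR-199a-5p over regions was 394, 295, 277, 327 and 354 CPM in letters A to E and 352, 323, 472, 623 and 501 CPM in letters F to J. Letters H, I and J lay above all non-shedders, while F and G lay among them. A limma-voom fit in which letters were a random block gave 0.45 and an adjusted p of 0.0413, the only fit with a member called for shedding, and it called 1.39% of all miRNAs. Without the 13 libraries the difference in the sum was 0.21 (adjusted p = 0.696 by edgeR), and without letter I it was 0.32. Leaving out the 13 libraries removes letter I and leaves letters B, C, G and H with sums over fewer regions. In those 13 libraries miR-199a-5p had a median of 523 CPM, against 331 CPM in the other 47, and the part of these libraries in the shedding difference was not tested beyond leaving them out.

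miR-199b followed miR-199a-5p. Its mean level by animal was 705, 502, 390, 494 and 544 CPM in letters A to E and 537, 450, 760, 795 and 898 CPM in letters F to J, so H, I and J were again the highest. In the sum over regions it differed by 0.43 ± 0.22 (adjusted p = 0.549), and the difference was positive in 5 of 6 regions, though in the spiral colon it was -0.06 without the 13 libraries. The exception was the duodenum (-0.11 ± 0.39), where letter I had 111 CPM, or 169 counts, while letters F, G, H and J had 541, 432, 360 and 853 CPM. In that library miR-199a-5p stood at 381 CPM, so the log2 ratio of miR-199a-5p to miR-199b was 1.77, whereas in the library means of the 10 letters it ran from -0.86 to -0.11.

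miR-199a-3p and miR-199c lay slightly the other way, below 0 in 6 of 6 regions with TMM, though above 0 in the cecum and the spiral colon with scaling to total counts. For miR-199c the difference ran from -0.28 to -0.07 and was -0.15 ± 0.15 in the sum over regions (adjusted p = 0.801). For miR-199a-3p it was -0.36 ± 0.21 in the sum (adjusted p = 0.644) and -0.26 without the descending colon library of letter J, with the lowest value in the descending colon at -0.54 ± 0.49. In that region miR-199a-3p had 3054, 2061, 1842, 4385 and 2662 CPM in letters A to E and 1852, 1841, 2611, 2438 and 314.6 CPM in letters F to J. miR-199c in letter J of that region was at 3217 CPM, inside the range of the non-shedders.

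miR-214 showed no direction, being positive in 3 and negative in 3 of 6 regions, between -0.26 and 0.26. Its mean by animal was 46.9, 36.0, 56.2, 45.6 and 50.8 CPM in letters A to E and 39.1, 43.4, 42.4, 69.5 and 41.8 CPM in letters F to J. Letter I was above all others, with the rest of the super-shedders inside the range of the non-shedders. The difference in the sum over regions was 0.01 ± 0.20 (adjusted p = 0.995). A p that misses the threshold does not show that levels were alike. In the sum over regions the SE ran from 0.15 for miR-199c to 0.22 for miR-199b, which leaves room for differences of that size and larger.

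**Figure D4:**
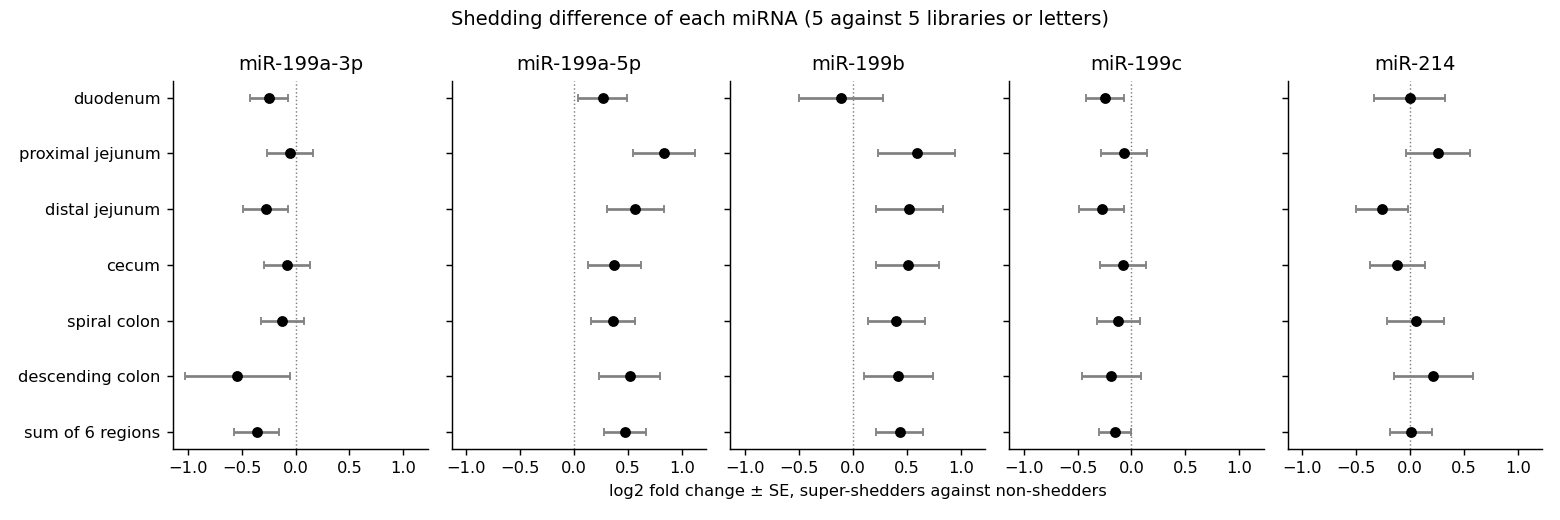
Log2 fold change of super-shedders against non-shedders with its SE for each miRNA, in each region (5 against 5 libraries) and in the counts summed over 6 regions (5 against 5 letters). miR-199a-5p lies above 0 and miR-199c below 0 in all 6 regions with TMM scaling, none of these differences passing the threshold, and with scaling to total counts miR-199c lies above 0 in the cecum and the spiral colon.

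Ratios of members within a library do not depend on how libraries are scaled, and they were compared by exact permutation tests on the mean of each letter. The log2 ratio of the counts named miR-199a-3p to those named miR-199a-5p averaged 2.48, 2.62, 2.62, 2.98 and 2.75 in letters A to E. It averaged 2.53, 2.48, 1.98, 1.52 and 1.37 in letters F to J. Letters H, I and J lay below all others, while F and G lay within the range of the non-shedders. The mean was 2.69 ± 0.19 (SD) in non-shedders and 1.98 ± 0.53 in super-shedders, a difference of -0.72 (exact two-sided permutation p = 0.0238, adjusted p = 0.143 over the 6 ratio tests). The smallest p that 5 against 5 allows is 0.00794. Since the miR-199a-3p counts repeat those of miR-199c, and several loci may give them, this is a ratio of named counts and not of the arms of a single precursor.

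The size of that difference rests in part on the library of letter J named above. With miR-199c in place of miR-199a-3p, letter J averaged 1.93 and the difference became -0.61 (exact permutation p = 0.0238, adjusted p = 0.0547 over the 4 tests with miR-199c). With miR-199c and without the 13 libraries it was -0.43 over 9 letters (exact permutation p = 0.0476, adjusted p = 0.0859 over 2 tests). Without that library of letter J the ratio with miR-199a-3p differed by -0.63 (exact permutation p = 0.0238, adjusted p = 0.111). Low p-values for ratios of 3p to 5p counts by shedding were not particular to miR-199a. Of 21 miRNA names tested as both 3p and 5p, 28.6% had an exact permutation p under 0.05, with 0 past the threshold after adjustment (lowest adjusted p = 0.125), and miR-199a ranked 3 among them by size.

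The ratio of miR-199a-3p to miR-214 was 5.50 ± 0.33 in non-shedders and 5.23 ± 0.42 in super-shedders on the log2 scale (exact permutation p = 0.246, adjusted p = 0.580). Between gut parts the ratio of miR-199a-3p to miR-199a-5p was higher in the large intestine in 6 of 10 letters, by 0.13 on average (exact sign-flip permutation p = 0.344, adjusted p = 0.580). Without the descending colon library of letter J that difference was 0.22, positive in 7 of 10 letters (exact permutation p = 0.0371, adjusted p = 0.111). With miR-199c as numerator that difference was 0.24, positive in 7 of 10 letters (exact permutation p = 0.0273, adjusted p = 0.0547). The ratio of miR-199a-3p to miR-214 between gut parts differed by 0.13 (exact permutation p = 0.387, adjusted p = 0.580). It differed by 0.23 without that library of letter J (exact permutation p = 0.0996, adjusted p = 0.199). For miR-199a-3p over miR-199c the differences were -0.11 between statuses and -0.11 between gut parts (exact permutation, adjusted p = 0.926 for both). Both rest on the descending colon library of letter J, and without it each was 0.0033 (exact permutation, adjusted p = 0.250 between statuses and 0.345 between gut parts).

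**Figure D5:**
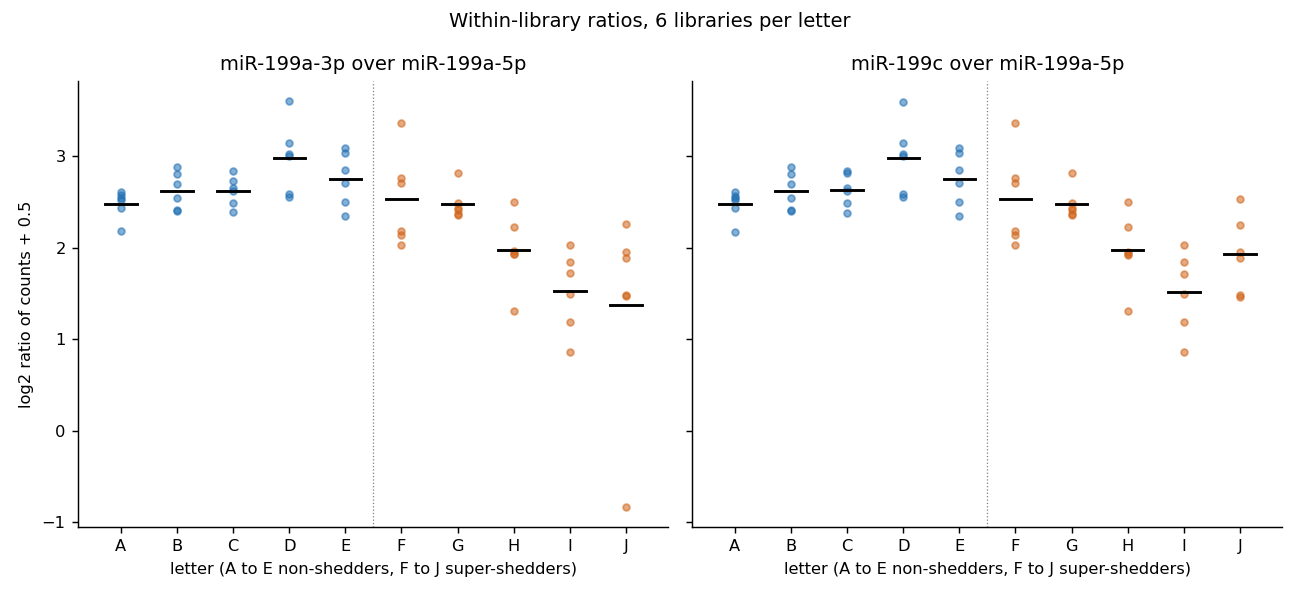
Log2 ratio of counts (0.5 added to each) of miR-199a-3p (left) and of miR-199c (right) to miR-199a-5p, with 1 point per library and a black line at the mean of each letter's 6 libraries. Letters H, I and J have the lowest means in both panels, and the descending colon library of letter J at the bottom left is within the others when miR-199c is used.

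Across libraries the members fell into a miR-199a-3p and miR-199c pair, a miR-199a-5p and miR-199b pair, and miR-214. Spearman correlations of log2 CPM over 60 libraries are given as descriptions, since libraries share animals, regions and a scaling. The correlation was 0.91 between miR-199a-3p and miR-199c and 0.75 between miR-199a-5p and miR-199b, the latter 0.74 after group means were removed. The 2 arms of miR-199a correlated at 0.29, or 0.12 with group means removed. miR-214 correlated at 0.32 with miR-199a-5p and at 0.24 with miR-199a-3p, and with group means removed these were 0.32 and -0.05. miR-199a-3p correlated with miR-3604 at 0.96.

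The name mesenchymal was checked against marker lists, again by description. The summed level of the stroma list correlated with miR-199a-5p at 0.57, miR-199b at 0.53, miR-199c at 0.43, miR-199a-3p at 0.41 and miR-214 at 0.40. With group means removed this was 0.44 for miR-199a-5p, 0.29 for miR-199b, 0.21 for miR-214 and -0.08 for both miR-199a-3p and miR-199c. Correlations with the epithelial list were negative for all 5 members, from -0.41 to -0.27. With group means removed they lay between -0.24 and -0.04, nearest to 0 for miR-199c at -0.04 and miR-199a-3p at -0.10. Those with the smooth muscle list, in effect miR-143, lay between 0.01 and 0.16, and between -0.16 and 0.04 with group means removed. As miR-10b carries most of the stroma sum, the list was also read without it, which gave 0.56 for miR-199a-5p, 0.60 for miR-199b, 0.25 for miR-199c, 0.20 for miR-199a-3p and 0.25 for miR-214, and with group means removed 0.68, 0.53, 0.10, 0.03 and 0.28. The link was not particular to stroma. With group means removed, miR-199a-5p correlated at 0.56 with the erythroid and 0.42 with the endothelial list, miR-199b at 0.33 and 0.06, and miR-214 at 0.21 with each.

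Of the other miRNAs tested, the 10 with the highest correlation with the mean of the 5 members over 60 libraries were miR-3604 (0.76), miR-10b (0.65), miR-3596 (0.64), miR-151-5p (0.60), let-7b (0.60), miR-27a-3p (0.54), miR-1468 (0.54), miR-130a (0.53), miR-450a (0.52) and miR-10a (0.52). With group means removed the order changed: miR-151-5p was at 0.60, miR-3596 at 0.58, miR-1468 at 0.55, miR-450a at 0.55 and let-7b at 0.52, while miR-3604 was at 0.36, miR-27a-3p at 0.25, miR-130a at 0.22, miR-10b at 0.26 and miR-10a at 0.15. miR-199a-3p and miR-199c, whose counts repeat each other, make up 2 of the 5 members in the mean. Taken by single member, miR-3604 was among the 5 most correlated miRNAs only for miR-199a-3p (0.96) and miR-199c (0.86). miR-10a and miR-10b are miRNAs of the HOX gene clusters, and miR-10b is also on the stroma list. The 5 lowest were miR-98 (-0.61), miR-215 (-0.52), miR-6524 (-0.51), miR-19b (-0.48) and miR-29b (-0.48), between -0.39 and -0.20 with group means removed. miR-215 is an epithelial miRNA of the gut and miR-19b belongs to the miR-17-92 cluster. In the large against the small intestine, miR-10b rose by 1.64 ± 0.30 (adjusted p = 6.01e-05) and miR-215 fell by 2.03 ± 0.40 (adjusted p = 1.20e-04), both larger changes than that of any member. For shedding in the sum over regions none of these 15 was called by edgeR.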

How the data were processed

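Small RNA was read from 60 bovine intestinal libraries. The authors deposited raw counts per mature miRNA, whole numbers with unequal column sums. The submitters' processing notes name Bowtie and edgeR, without roles or versions. The genome build, the annotation and the handling of multiply matching reads were not given in the sources used here. RefSeq names (ARS-UCD2.0) served for names and overlapping genes only.

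Counts were filtered (filterByExpr, minimum count 10), scaled by TMM and tested in R 4.3.3 by edgeR 4.0.16 (quasi-likelihood F test), with Benjamini-Hochberg adjustment over all miRNAs tested and a threshold of 0.05, two-sided. All 5 members passed the filter in each comparison. The SE is the size of the log2 change over the square root of F. Log2 CPM used a prior count of 0.5. Exact permutation tests used SciPy 1.17.1. The fits were tested on simulated data. The 60-library model treats libraries of 1 letter as independent. The letters were read as animals because each keeps 1 status and the labels speak of tissues from each animal; of 150 same-letter pairs of libraries, 89 had residual correlations over 0.1, with a mean of 0.14 against -0.06 for other pairs of the same status. Nothing else shows that libraries of a group are independent, so p-values measure the spread between them. The lowest chi-square per degree of freedom between libraries of a group was 49.0, so none was a repeat.

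Alternatives were size factors (RLE), total-count scaling, no filter, DESeq2 1.42.0, the letter as block, limma 3.58.1 (voom) with the letter as random block, each letter left out, and no 13 libraries outside a marker rule (miR-196b under 50 CPM in the large or at least 50 in the small intestine, miR-192 under 10000, or miR-122 over 1000). Chosen after seeing the data were leaving out the descending colon library of letter J, miR-199c as numerator, the 3p to 5p ratios of other miRNAs and the stroma list without miR-10b. The named miRNAs are the 5 members and the 10 most and 5 least correlated with their mean. Members, lists (stroma, smooth muscle, endothelium, epithelium, leukocyte, erythroid, neural, liver or pancreas) and tests were chosen with earlier results of these data known. The pairing by letter is an inference from the titles. Shared seeds were not analysed here.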

Additional observations from a re-analysis of the deposited data

Results flagged for a closer look

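In 60 groups of 5 libraries (5 miRNAs in 12 groups), 9 held a library whose log2 level lay far from the other 4, by Dixon's ratio of the gap to the range, and chance alone gives about 1 in 20 groups. Of these 9, 4 come from miR-199a-3p and miR-199c together, whose counts repeat each other. In the super-shedder distal jejunum letter I was low, with 1086 CPM of miR-199a-3p and 1085 CPM of miR-199c, and in the super-shedder spiral colon letter F was high, with 3235 and 3232 CPM. miR-199a-3p was low in the super-shedder descending colon of letter J, with 314.6 CPM. miR-199a-5p was high in the non-shedder distal jejunum of letter E, with 379 CPM. miR-199b was high in the non-shedder duodenum of letter A, with 626 CPM. miR-214 was low in the non-shedder distal jejunum of letter B, with 43.0 CPM, and high in the super-shedder descending colon of letter I, with 110 CPM. The libraries named of letter I and letter B are among the 13 outside the marker rule.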

How the results depend on the processing

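The main limits are the shared counts of miR-199a-3p and miR-199c and the 5 animals per status. In the large against the small intestine, 2 members were called. Total-count scaling gave 0, the letter as replicate block 4, leaving out the 13 libraries 4, and leaving out 1 letter 2 to 4. The share of all miRNAs called was, in the same order, 29.2%, 31.2%, 51.5% and 18.7% to 44.0%, against 27.1%. For any difference between regions the 2 calls became 0 with total counts, 4 with DESeq2, 4 with the replicate block, 4 without the 13 libraries, 3 with RLE and 1 to 3 with 1 letter left out. The share of all miRNAs called was, in the same order, 13.5%, 32.6%, 31.6%, 53.1%, 24.7% and 13.6% to 42.3%, against 21.5%. For the proximal jejunum against the duodenum the 0 calls became 2 with the block, 1 without the 13 libraries and 0 to 1 with 1 letter left out. The share of all miRNAs called was, in the same order, 5.90%, 18.4% and 3.99% to 14.4%, against 6.6%. For shedding over all regions limma-voom with the letter as random block called 1 member and 1.39% of all miRNAs. The block changed no other count of calls. The cause of these moves was not tested. Direction turned in some shedding differences and in 1 region difference (miR-199b, proximal jejunum against duodenum, 0.34 with all libraries). With 1 letter left out, miR-214 ranged from -0.19 to 0.24 in the duodenum, -0.065 to 0.36 in the proximal jejunum, -0.24 to 0.037 in the cecum, -0.12 to 0.14 in the spiral colon, -0.094 to 0.44 in the descending colon and -0.16 to 0.10 over all regions. miR-199b ranged from -0.31 to 0.23 in the duodenum and, for the proximal jejunum against the duodenum, from -0.031 to 0.50. miR-199a-3p and miR-199c ranged from -0.20 to 0.030 and -0.22 to 0.012 in the proximal jejunum, -0.22 to 0.040 and -0.22 to 0.041 in the cecum, and -0.30 to 0.023 each in the spiral colon. Total-count scaling gave 0.32 for miR-199a-3p, 0.32 for miR-199c and 0.31 for miR-214 in the cecum, 0.095 and 0.096 for the first pair in the spiral colon, 0.078 for miR-199b and 0.21 for miR-214 in the duodenum, and -0.11 for miR-214 in the proximal jejunum. Without the 13 libraries miR-199b was 0.23 in the duodenum, -0.065 in the spiral colon and -0.0098 for the proximal jejunum against the duodenum, and miR-214 was -0.075, -0.20 and -0.17 in the proximal jejunum, spiral colon and descending colon and -0.20 over all regions. miR-214 was 0.062 (RLE) and 0.060 (DESeq2) in the duodenum, and over all regions -0.026 without the filter, -0.0017 with limma-voom and -0.018 without the descending colon library of letter J. Of the other values of single members and of ratios of 2 members, 850 kept direction and side of the threshold, 21 passed it newly and 13 lost it.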
